A study of Mus musculus with 8 samples.

Results

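Complex I of the respiratory chain was examined through the 45 genes whose symbol starts with Nduf and whose mean level over the libraries was at least 1 TPM (an abundance corrected for transcript length and scaled to a fixed total), out of 35976 genes in the table. The minimum removed no gene, since all 45 Nduf genes of the table passed it, and all 45 also passed the filter on low counts. The RNA was sequenced from whole livers of 2 groups of mice. The OPA1 LKO group (n = 3) carried a knockout of Opa1 in hepatocytes, and the CTRL group (n = 5) holds the controls, titled wild type. All samples of both groups carry the label of a high fat diet. The labels name no strain, age or sex, no Cre driver, no deleted exon and no batch, and do not say that each sample is a separate animal, so p-values reflect only how far these samples spread, and part of that spread may be technical. In whole liver, fewer hepatocytes and less RNA per hepatocyte cannot be told apart.

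Complex I (NADH:ubiquinone oxidoreductase) takes electrons from NADH in the mitochondrial matrix and passes them through a flavin and a chain of iron-sulfur clusters to ubiquinone, while it pumps protons across the inner membrane. It is L-shaped, with a peripheral arm in the matrix that carries the electron path and a membrane arm that carries the pumps. The core subunits of the membrane arm are encoded by mitochondrial DNA, and the core subunits of the peripheral arm and all supernumerary (accessory) subunits by the nucleus. Assembly factors build the arms from modules and do not stay in the finished enzyme. OPA1 is a large GTPase of the inner membrane that fuses it and shapes its folds, the cristae, in which complex I resides. By their roles the 45 genes were 7 core subunits of the peripheral arm, 9 supernumerary subunits of that arm, 19 supernumerary subunits of the membrane arm, the acyl carrier protein Ndufab1, which sits in both arms, 7 assembly factors (Ndufaf1 to Ndufaf7), and Ndufa4 and its relative Ndufa4l2, which carry a complex I name although NDUFA4 is known as a subunit of complex IV.

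No complex I gene passed the test for a difference between OPA1 LKO and CTRL livers. Of the 45 genes, 0 had an adjusted p under 0.05 in edgeR (quasi-likelihood test, Benjamini-Hochberg over all 14036 tested genes), which called 6.03% of those genes. At an unadjusted p under 0.05 there were 2, Ndufb3 and Ndufs1, where 23.8% of all tested genes passed. DESeq2 called 1, Ndufb3, where it called 12.1% of all tested genes. The 45 log2 fold changes lay between -0.40 and 0.08, and every 95% interval lay within a 2-fold change in either direction.

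The promoters of 3 genes are shown. Ndufb3 had the smallest p of the 45, and Ndufs5 was the only other gene whose counts, once scaled between libraries, did not overlap between the groups. Ndufb4 held the most matches of the motif of nuclear respiratory factor 1 (NRF1), a transcription factor known to act on many respiratory chain genes. The 3 genes were chosen for these values, after the values were seen. Each line gives the 250 bases before the annotated start of transcription, 5′ to 3′ on the gene's strand, from RefSeq promoters of build GRCm38.p6. Capitals mark matches on either strand of the NRF1 core CGCANGCGC and of the SP1 motif GGGCGG.
Ndufb3, chr1:58586147-58586396, plus strand: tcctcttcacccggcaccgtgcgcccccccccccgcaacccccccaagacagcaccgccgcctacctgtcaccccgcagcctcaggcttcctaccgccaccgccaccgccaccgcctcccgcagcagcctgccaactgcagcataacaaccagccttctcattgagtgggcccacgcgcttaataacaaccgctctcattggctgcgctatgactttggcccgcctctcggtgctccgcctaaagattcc
Ndufs5, chr4:123718187-123718436, minus strand: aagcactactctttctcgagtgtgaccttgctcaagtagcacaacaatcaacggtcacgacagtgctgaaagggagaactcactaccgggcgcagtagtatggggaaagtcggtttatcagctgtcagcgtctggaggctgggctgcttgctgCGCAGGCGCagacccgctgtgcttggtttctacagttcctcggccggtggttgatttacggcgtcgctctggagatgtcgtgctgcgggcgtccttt
Ndufb4, chr16:37654369-37654618, minus strand: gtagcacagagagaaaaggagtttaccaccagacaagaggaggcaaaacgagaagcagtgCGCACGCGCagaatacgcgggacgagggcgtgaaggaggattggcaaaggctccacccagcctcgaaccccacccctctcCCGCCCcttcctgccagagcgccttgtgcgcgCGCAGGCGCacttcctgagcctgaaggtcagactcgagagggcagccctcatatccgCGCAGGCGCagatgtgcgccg

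Ndufb3 held no match in this window. Ndufs5 held 1 NRF1 core match, at position -97 from the start, and Ndufb4 held 3, at -190, -78 and -21, and an SP1 match. In the 300 bases from 250 before to 50 after the start, 39 of the 45 genes had a RefSeq promoter, and 11 of them (28.2%) held the NRF1 core, against 7.12% of all 27025 genes with a promoter and 14.3% of the 10562 of these that were tested here. The 11 were Ndufa5, Ndufa6, Ndufa8, Ndufa11, Ndufa12, Ndufb4, Ndufb10, Ndufs5, Ndufs6, Ndufaf4 and Ndufaf5. The motif AAGATGGCG, which the factor YY1 binds, occurred in 5 genes (12.8%), against 1.64% of all genes and 3.34% of tested genes. In all 5 (Ndufa9, Ndufc1, Ndufs4, Ndufs6 and Ndufs7) it lay on the gene's own strand, between 22 and 35 bases after the start. The SP1 motif, which is short and common, occurred in 20 (51.3%), against 38.2% of all and 65.1% of tested genes. The motif CCGGAAGT of ETS factors such as GABPA occurred in 1 (Ndufs3, 2.56%), against 4.31% of all and 8.45% of tested genes. The motif TCAAGGTCA of the estrogen-related receptors occurred in 0, against 0.47% of all and 0.33% of tested genes. Each motif was searched on both strands, and a match describes these letters and not a bound site.

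Estimated reads on genes numbered 16076404 to 20471271 in a library, and no Nduf gene fell under 29 reads in any of them. Opa1 itself had 24.7, 34.4 and 34.0 CPM (counts scaled to a fixed library total after correction by the trimmed mean of M-values, TMM) in the OPA1 LKO livers, against 39.9, 51.9, 44.0, 57.6 and 46.9 CPM in the CTRL livers. In CPM all OPA1 LKO libraries lay below all CTRL libraries, but in TPM the groups overlapped, at 5.15, 7.45 and 5.90 TPM in OPA1 LKO livers and 9.67, 11.2, 6.73, 9.44 and 8.89 TPM in CTRL livers. The CPM difference was -0.63 ± 0.17 on the log2 scale (SE), with an adjusted p of 0.0539 in edgeR and 0.00894 in DESeq2. CTRL replicate 1 stood apart, with 134 CPM of Apoe, an apolipoprotein made in quantity by hepatocytes, where the OPA1 LKO libraries held 20759 to 26123 CPM and the other CTRL libraries 25200 to 33180 CPM. Without it the adjusted p of Opa1 was 0.0272, and 12.2% of genes were called in place of 6.03%, but still 0 of the 45 complex I genes. Summed hepatocyte markers (8 genes, of which 1 rose) ranged from 76106 to 96805 CPM in OPA1 LKO and from 62647 to 113415 CPM in CTRL livers, so defining markers of liver were present in every library. Summed bile duct markers (6 genes, 1 of them negative) ranged from 140 to 204 CPM in OPA1 LKO and from 17.5 to 69.6 CPM in CTRL livers. Of the 6, 3 rose in edgeR, which called 6.03% of all tested genes, and Cldn7 was at 0 in CTRL replicate 2. The number called ran from 1 without OPA1 LKO replicate 3 to 6 without CTRL replicate 3. Among the bile duct markers Spp1, osteopontin, had the lowest p and rose by 2.76 ± 0.25 (edgeR, adjusted p = 0.00062). Of 37 tested markers of 8 other cell types 0 passed in edgeR (6 at an unadjusted p under 0.05), DESeq2 called 2, and edgeR called 4 without CTRL replicate 1. Summed Kupffer cell markers ranged from 122 to 171 CPM in OPA1 LKO and from 135 to 678 CPM in CTRL livers (5 of 6 genes negative, median -0.68), and those of recruited macrophages from 47.1 to 111 CPM in OPA1 LKO and from 36.5 to 238 CPM in CTRL livers. CTRL replicate 1 held the highest CTRL sum of both. Stellate cell markers ranged from 253 to 546 CPM in OPA1 LKO and from 180.2 to 259 CPM in CTRL livers (7 of 7 genes positive, median 0.74), and lymphocyte markers from 5.85 to 12.4 CPM in OPA1 LKO and from 2.88 to 7.59 CPM in CTRL livers (5 of 5 positive, median 0.73). Cfd (adipsin), the only 1 of 4 listed fat cell markers that was tested, differed by -2.61 ± 0.71 with an adjusted p of 0.0588 in edgeR. Without the filter on low counts all 4 fat cell markers were tested, of which 1 was negative, with a median of 0.38. The part of these markers in the complex I values was not tested.

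**Figure D1:**
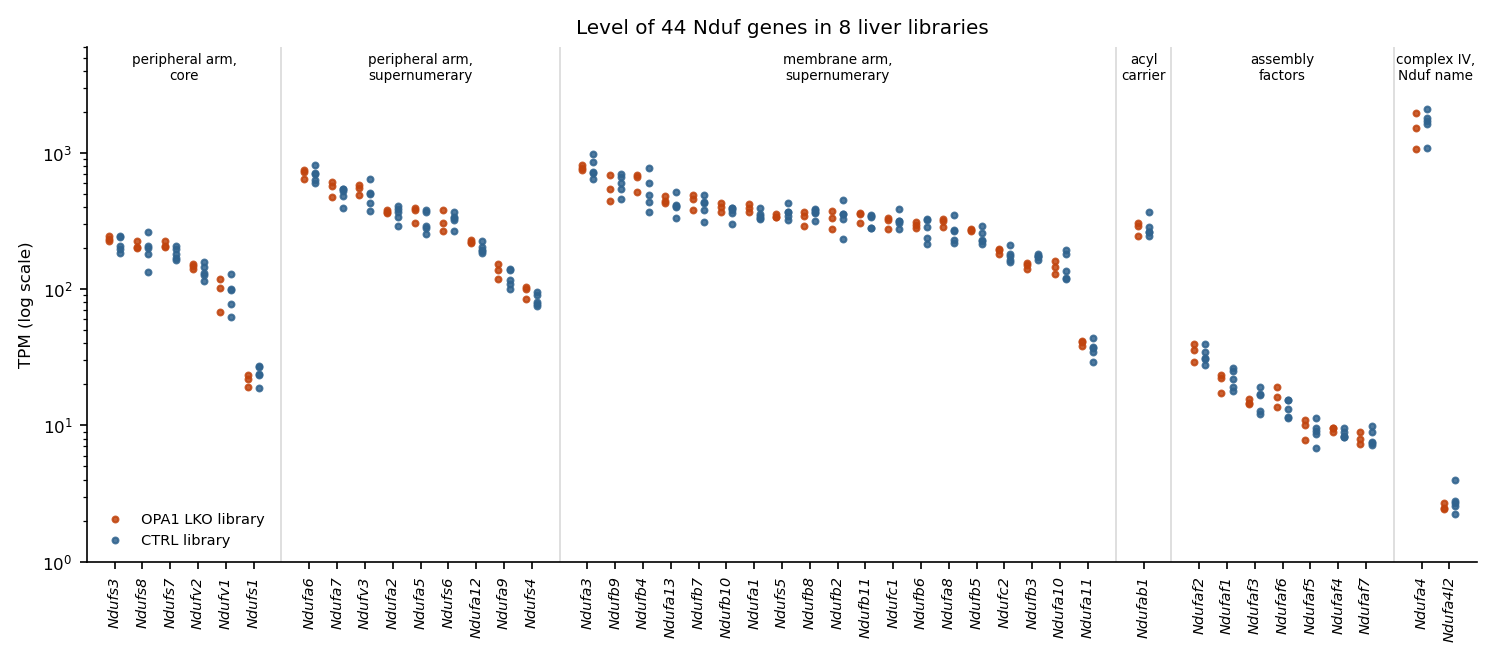
Level of 44 of the 45 Nduf genes in TPM on a log axis, 1 point for each library, with OPA1 LKO libraries on the left and CTRL libraries on the right of each gene and genes ordered by role and mean level. Most subunits lie above 100 TPM, with Ndufs1 and Ndufa11 far below them. The mean levels of assembly factors lie between 8.15 and 33.5 TPM, and the groups overlap for every gene but Ndufb3.

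Per transcript length, the complex I genes of liver spanned a wide range of levels. The mean TPM over all libraries ran from 2.73 for Ndufa4l2 to 1617 for Ndufa4, which alone made up 12.7% of the TPM of the 45 genes. Among the 36 complex I subunits the range was 34.0-fold, from 23.1 TPM for Ndufs1 to 784 TPM for Ndufa3, with a median of 301 TPM. The 7 assembly factors had a median of 14.5 TPM, from 8.15 TPM for Ndufaf7 to 33.5 TPM for Ndufaf2. In all, 33 genes lay above 100 TPM and 10 below 50 TPM. The plot of levels by role shows that Ndufs1, the largest core subunit, and Ndufa11, a membrane arm subunit, stood lowest. In TPM both lay well below the other subunits in every library. In CPM, which is not corrected for length, Ndufa11 did not, with a CTRL mean of 90.4 against 80.2 for Ndufa12 and 82.1 for Ndufc1. The summed TPM of the 45 genes was 13460, 13569 and 11936 in OPA1 LKO livers, against 14536, 13042, 11564, 12527 and 11531 in CTRL livers, and the groups overlapped.

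**Figure D2:**
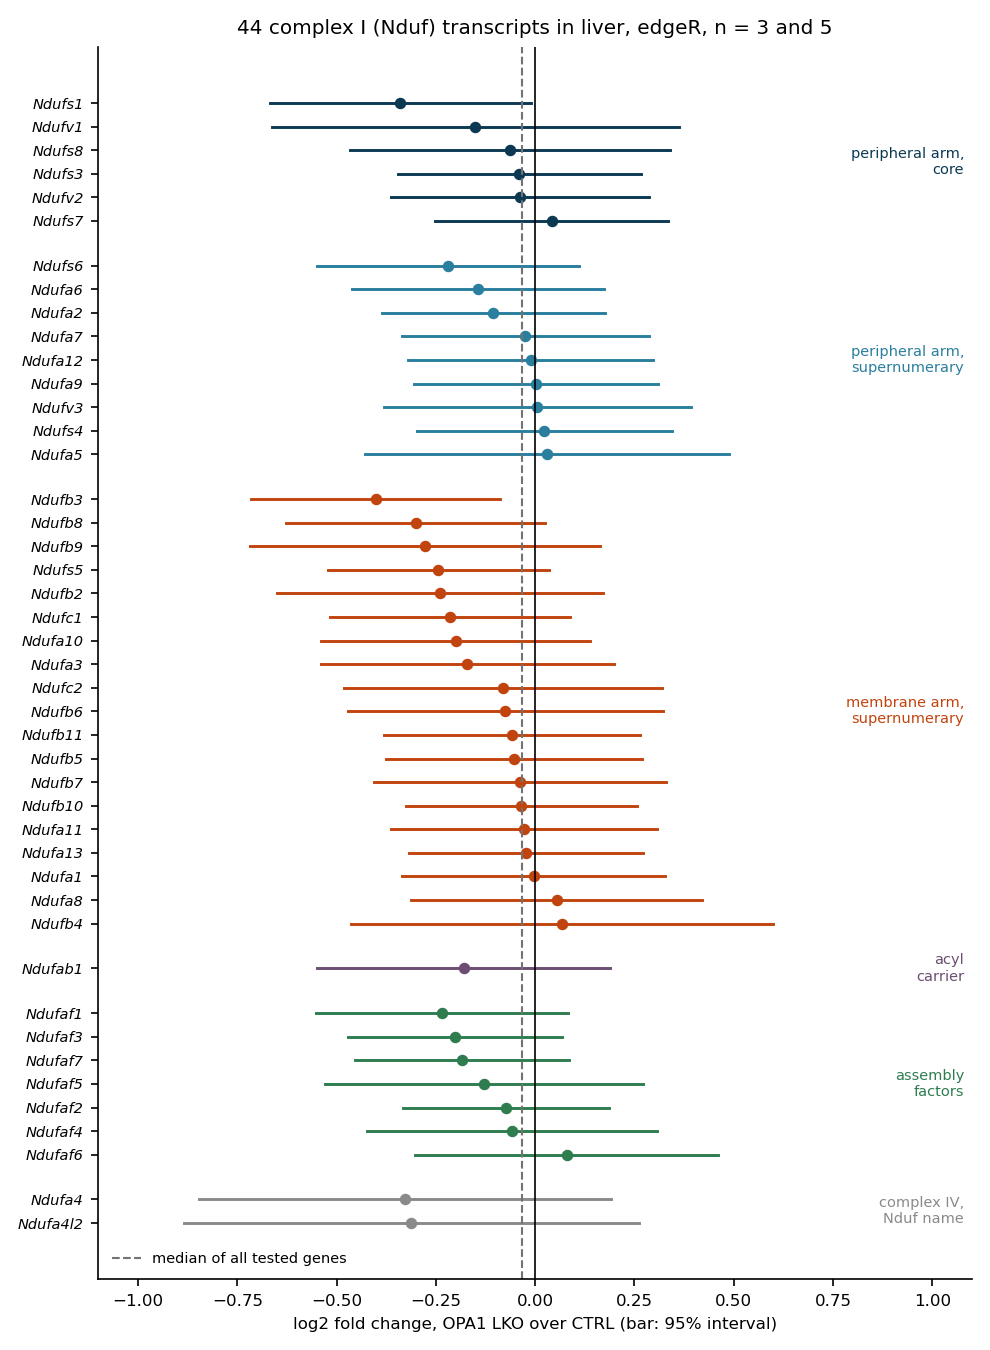
Log2 fold change of 44 of the 45 Nduf genes, OPA1 LKO over CTRL, from edgeR (n = 3 and 5), with bars for the 95% interval and genes grouped by role. All points lie between -0.40 and 0.08, and only the intervals of Ndufb3 and Ndufs1 leave out 0.

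The core of the peripheral arm holds the flavin and the iron-sulfur clusters. Ndufs1, the subunit with the most clusters, had 46.2, 48.7 and 46.8 CPM in OPA1 LKO livers, against 47.2, 62.4, 54.2, 68.8 and 66.6 CPM in CTRL livers. The OPA1 LKO libraries lay close together at the bottom of the CTRL range, and CTRL replicate 1 lay among them. The log2 difference of Ndufs1 (chr1:63143592-63176822) was -0.34 ± 0.15, with an edgeR p of 0.196 after adjustment (0.0436 before it). Ndufv1, the flavin and NADH binding subunit, differed by -0.15 ± 0.23, with a difference of 0.02 when OPA1 LKO replicate 3 was left out. Ndufs3, the highest of the class at 223 TPM, had 162, 152 and 173 CPM in OPA1 LKO livers, against 155, 172, 179, 186 and 141 CPM in CTRL livers, and differed by -0.04 ± 0.14. Ndufs7, Ndufs8 and Ndufv2 lay between -0.06 and 0.04.

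The supernumerary subunits of the peripheral arm had log2 fold changes from -0.22 to 0.03 with a median of -0.01, and every 95% interval lay within a 1.5-fold change. Of the 9 genes 5 were negative in edgeR, and 1 on the log2(TPM + 1) scale, where their median was 0.16 and that of all tested genes 0.09. Ndufs6, a zinc-binding subunit, had 91.7, 112 and 92.8 CPM in OPA1 LKO livers, against 96.0, 120, 109, 137 and 113 CPM in CTRL livers, and differed by -0.22 ± 0.15 with an adjusted p of 0.403 (edgeR). Ndufa6, a small LYR-motif subunit and the highest of the class at 699 TPM, differed by -0.14 ± 0.14. Ndufa2, a small subunit with a thioredoxin-like fold, differed by -0.11 ± 0.13. Ndufs4, known from mouse knockouts with a Leigh-like disease and the lowest of the class at 88.5 TPM, had 117, 118 and 114 CPM in OPA1 LKO livers, against 104, 101, 121, 141 and 105 CPM in CTRL livers. The OPA1 LKO libraries lay inside the CTRL range, and the difference was 0.02 ± 0.14. Ndufa5, Ndufa7, Ndufa9, Ndufa12 and Ndufv3 lay between -0.03 and 0.03.

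The membrane arm held the gene with the largest difference. Ndufb3, a small subunit with a single membrane span, had 77.4, 73.9 and 81.7 CPM in OPA1 LKO livers, against 86.1, 95.4, 113, 119 and 99.5 CPM in CTRL livers. Every OPA1 LKO library lay below every CTRL library, with CTRL replicate 1 the nearest. In TPM the groups were also apart, at 154, 151 and 141 TPM in OPA1 LKO livers and 181, 176, 165, 176 and 171 TPM in CTRL livers. The mean was 77.7 ± 3.93 CPM in OPA1 LKO and 103 ± 13.3 CPM in CTRL livers (SD, n = 3 and 5), a log2 difference of -0.40 ± 0.14 (chr1:58586397-58595964, plus strand), with a 95% interval from -0.72 to -0.09. Its p was 0.0172 unadjusted and 0.122 adjusted in edgeR, and 0.0454 adjusted in DESeq2. Without CTRL replicate 1 its adjusted p was 0.0576 in edgeR, and over all leave-one-out fits it ran from 0.0576 to 0.325.

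Ndufs5, a subunit with disulfide bonds on the intermembrane side of the membrane arm, was the only other gene with groups apart in CPM. It had 107, 98.8 and 118 CPM in OPA1 LKO livers, against 122, 119, 141, 130 and 127 CPM in CTRL livers. The gap between the highest OPA1 LKO and the lowest CTRL library was narrow, and in TPM the groups overlapped. Its log2 difference was -0.24 ± 0.13 (chr4:123712710-123718186, minus strand), with an adjusted p of 0.271 in edgeR. Its estimated counts were not whole in any of the 8 libraries, so RSEM had divided some of its reads with another place in the genome. Being lower with no overlap in CPM was found for 2 of the 45 genes, where 8.41% of all tested genes were (16.4% in either direction), and in TPM for 1, where 2.79% were.

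Ndufb8, a membrane arm subunit often used as a protein marker of complex I, had 146, 152 and 143 CPM in OPA1 LKO livers, against 146, 178, 183, 216 and 183 CPM in CTRL livers. All CTRL libraries but replicate 1 lay above the OPA1 LKO range, and the difference was -0.30 ± 0.15 (chr19:44548571-44555442), with an adjusted p of 0.245. Ndufa3, the highest subunit in TPM, differed by -0.17 ± 0.17 (-0.04 without CTRL replicate 3), and Ndufa11, the lowest of the class at 38.0 TPM, by -0.03 ± 0.15. Of the 19 genes of the class 17 had a negative fold change, with a median of -0.08, against 7 on the log2(TPM + 1) scale. The counts of Ndufb4 were, like those of Ndufs5, not whole in any library. Ndufb4, Ndufa1, Ndufa8, Ndufa10, Ndufa13, Ndufb2, Ndufb5, Ndufb6, Ndufb7, Ndufb9, Ndufb10, Ndufb11, Ndufc1 and Ndufc2 lay between -0.28 and 0.07. Ndufab1, the acyl carrier protein, also known from mitochondrial fatty acid synthesis, had 132, 105 and 145 CPM in OPA1 LKO livers, against 151, 124, 171, 152 and 123 CPM in CTRL livers, and differed by -0.18 ± 0.17, or by -0.06 without OPA1 LKO replicate 2.

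**Figure D3:**
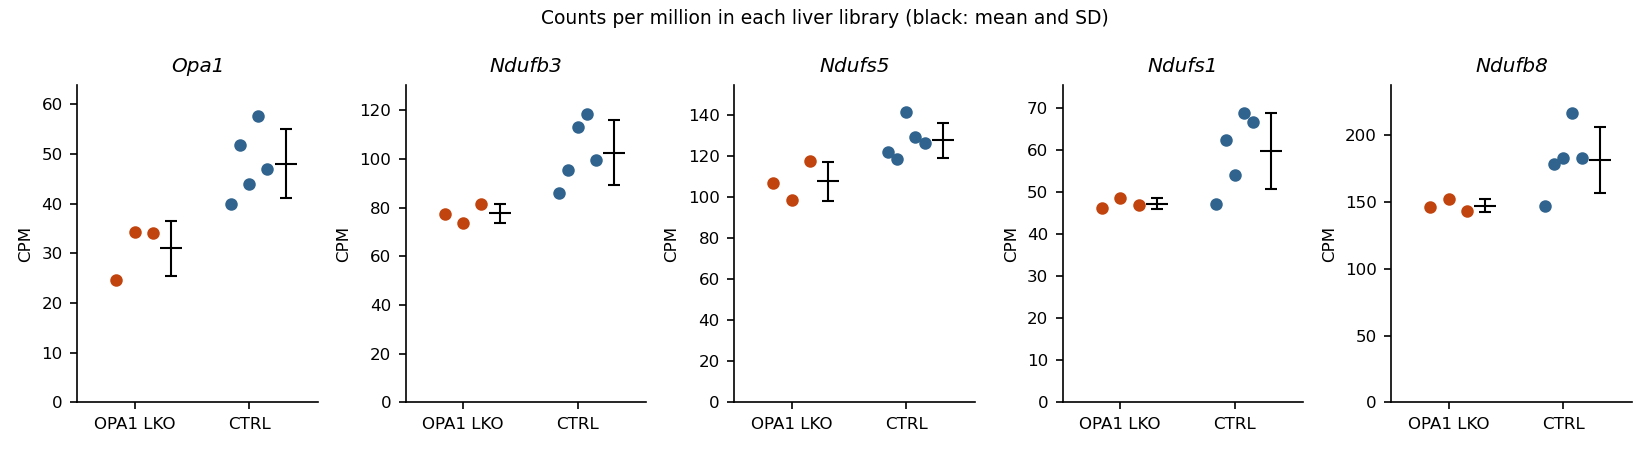
CPM of Opa1 and of 4 complex I genes among those with the lowest or most separate values, 1 point for each library, OPA1 LKO left and CTRL right, with the mean and SD in black and each axis starting at 0. Opa1, Ndufb3 and Ndufs5 do not overlap between the groups, and the lowest CTRL point of Ndufb3, Ndufs1 and Ndufb8 is CTRL replicate 1.

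The assembly factors had a median log2 fold change of -0.13, and 6 of 7 were negative (3 on the log2(TPM + 1) scale). Ndufaf3, which with NDUFAF4 acts in the early build of the ubiquinone-binding module, had 11.3, 11.8 and 12.8 CPM in OPA1 LKO livers, against 14.0, 14.1, 13.4, 12.6 and 14.8 CPM in CTRL livers. The groups overlapped only through CTRL replicate 4, and the difference was -0.20 ± 0.12 with an adjusted p of 0.344 (edgeR). Ndufaf1, a factor of the early membrane arm intermediate, differed by -0.24 ± 0.14, and Ndufaf7, a methyltransferase, by -0.18 ± 0.12. Ndufaf2, which acts late in assembly, differed by -0.07 ± 0.12. Ndufaf6 had the largest positive difference of all 45 genes, 0.08 ± 0.17, with 11.96, 14.0 and 11.5 CPM in OPA1 LKO livers, against 9.72, 12.6, 11.7, 15.2 and 10.03 CPM in CTRL livers. It was -0.02 without OPA1 LKO replicate 2. Ndufaf4 and Ndufaf5 lay between -0.13 and -0.06. The gene listed as 1810043H04Rik, which RefSeq names Ndufaf8 and which the symbol rule leaves out, differed by -0.43 ± 0.15 with an adjusted p of 0.113, or 0.0437 without CTRL replicate 1, and its CPM did not overlap between the groups. A second such gene, Gm3244, which RefSeq names Ndufb4c, differed by -0.22 ± 0.17 with an adjusted p of 0.468 (edgeR), and its groups overlapped. Both were named after their values were seen.

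Ndufa4 had 432, 550 and 351 CPM in OPA1 LKO livers, against 469, 555, 427, 805 and 532 CPM in CTRL livers, and differed by -0.33 ± 0.23 with an adjusted p of 0.429 (edgeR). The spread within each group was wide, and the value was -0.14 without CTRL replicate 4 and -0.51 without OPA1 LKO replicate 2. Ndufa4l2, a relative known as a target of hypoxia signalling, was at 1.66, 1.80 and 1.95 CPM in OPA1 LKO livers, against 2.55, 1.63, 2.52, 2.33 and 2.18 CPM in CTRL livers, and differed by -0.31 ± 0.26. It was the only gene just inside the minimum of the rule, at 2.73 TPM, and no Nduf gene of the table lay outside it. On the opposite strand it shares 32 exon bases with Shmt2, which had 91.3 times its counts. In all, 11 of the 45 genes share exon bases with a tested gene, each on the opposite strand, and the strand setting of the counting is not given in the sources used here.

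Over the 45 genes the median log2 fold change was -0.08, against -0.03 over all tested genes and -0.06 over the 11122 tested genes within the same range of mean CPM. A negative sign was held by 37 of 45 genes (82.2%), against 53.1% of all tested genes. That count depended on the scaling of the libraries and was 21 with upper-quartile factors and 16 on the log2(TPM + 1) scale. The negative share of all tested genes moved too, to 44.8% and 37.6%. Below the median of all tested genes lay 32 of the 45 in the reported fit, 31 with upper-quartile factors and 22 on the log2(TPM + 1) scale. On the log2(TPM + 1) scale the members' median was 0.10 and that of all tested genes 0.09. The 95% interval lay within a 2-fold change for 45 of 45 genes, against 61.9% of all tested genes and 74.1% of the 11122. It lay within a 1.5-fold change for 35 of 45 (77.8%), against 27.9% and 34.8%. The range of CPM runs from Ndufa4l2 to Ndufa4 and holds most tested genes. These shares are therefore not matched on level, and whether the narrower intervals go beyond level was not tested.

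**Figure D4:**
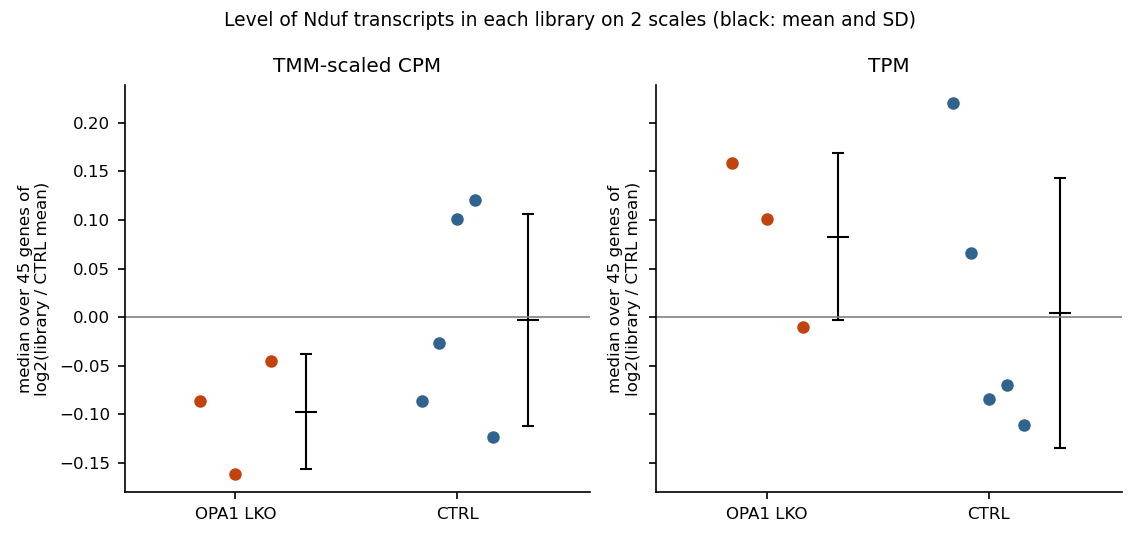
Median over the 45 Nduf genes of the log2 ratio of a library to the CTRL mean, 1 point for each library, for TMM-scaled CPM (left panel) and TPM (right panel), OPA1 LKO left and CTRL right, with mean and SD in black. In CPM the OPA1 LKO points run from -0.16 to -0.05 and the CTRL points from -0.12 to 0.12, and in TPM all OPA1 LKO points lie within the CTRL range.

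The level of the 45 genes differed between the groups by less than the SD of the CTRL libraries. The median log2 ratio of the 45 genes to the CTRL mean in CPM averaged -0.10 ± 0.06 in OPA1 LKO and -0.0027 ± 0.11 in CTRL livers (SD, n = 3 and 5). By library it was -0.09, -0.16 and -0.05 in OPA1 LKO livers, against -0.09, -0.03, 0.10, 0.12 and -0.12 in CTRL livers. In OPA1 LKO livers 32, 40 and 28 of the 45 lay below their CTRL mean, against 35, 31, 12, 7 and 38 in CTRL livers. The same count was not made over all tested genes. A shift of these genes and a shift of the whole library through its scaling therefore cannot be told apart. In TPM the same medians were 0.16, 0.10 and -0.01 in OPA1 LKO livers, against 0.22, 0.07, -0.09, -0.07 and -0.11 in CTRL livers. Reads from mitochondrial DNA, which take part in the total that TPM is scaled to, made up 15.4, 11.96 and 21.7% of counts in OPA1 LKO livers, against 13.9, 14.9, 26.4, 17.0 and 18.8% in CTRL livers. The OPA1 LKO library with the highest mitochondrial share had the lowest TPM median of its group, and the CTRL library with the highest share had the next-lowest of its group. The part of the mitochondrial share in the TPM medians was not tested. In the edgeR fit without mitochondrial genes 0 of the 45 genes were called, and their median was -0.06. In the log2(TPM + 1) fit rescaled without mitochondrial genes 0 were called, 19 were negative and their median was 0.055.

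Within genes, the division among transcripts was also compared. Of the 45 genes 16 had at least 2 transcripts of 1 TPM or more, which gave 29 shares of a gene's TPM. In 2 shares the groups did not overlap, which gives 0.0357, the smallest p that the exact two-sided permutation test allows for 3 against 5 samples. At least 21 of the 29 shares would have to reach it for any Benjamini-Hochberg adjusted p to fall under 0.05. The adjusted values (0.518 at the lowest) could therefore hardly call a share and say nothing of whether shares differed. Shares of genes outside the 45 were not tested, so whether 2 of 29 is unusual is not known. The transcript XM_006527554.1 of Ndufb11, an X-linked membrane arm subunit, took 74.2, 74.4 and 75.1% of the gene's TPM in OPA1 LKO livers, against 82.3, 81.1, 89.0, 78.0 and 81.1% in CTRL livers. The mean was 74.6 ± 0.47% in OPA1 LKO and 82.3 ± 4.08% in CTRL livers (SD, n = 3 and 5, exact permutation p = 0.0357). The shorter transcript NM_001083891.1 of Ndufv3, of 493 bases against 1582 for the longer, took 95.7, 95.8 and 95.9% in OPA1 LKO livers, against 96.5, 96.2, 96.5, 96.1 and 96.4% in CTRL livers. The groups were separate but differed by 0.53 percentage points only, lower in OPA1 LKO. Shares of transcripts are RSEM estimates, and Ndufb11 shares 117 exon bases with Rbm10 on the opposite strand.

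**Figure D5:**
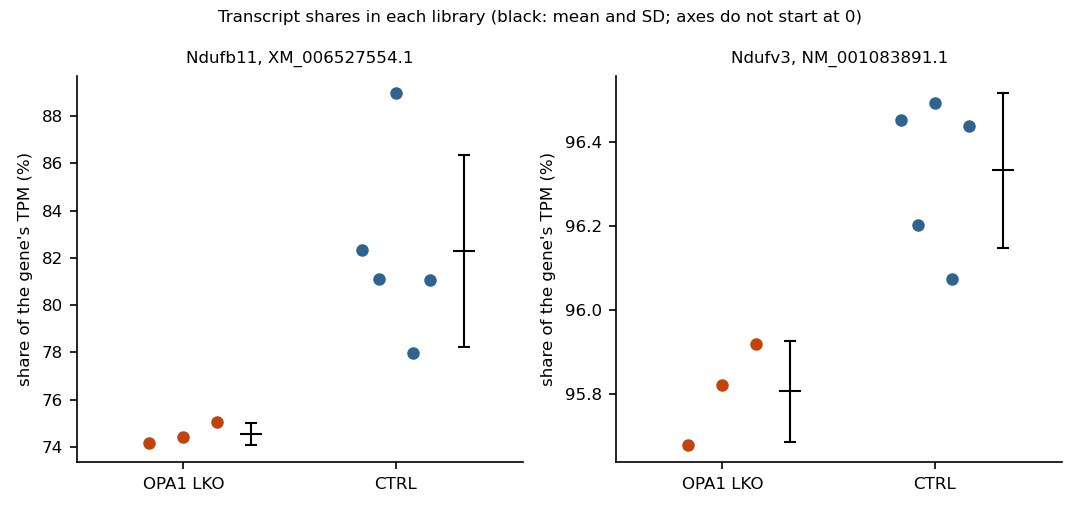
Share of the gene's TPM taken by a transcript of Ndufb11 (left panel) and of Ndufv3 (right panel), 1 point for each library, OPA1 LKO left and CTRL right, with mean and SD in black. The axes do not start at 0, and in each panel all OPA1 LKO points lie below all CTRL points.

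Other genes of complex I and of its surroundings were read from lists, each beside the 6.03% of all tested genes that were called. Of 14 further assembly factors 0 passed the edgeR test, 2 at an unadjusted p under 0.05, and DESeq2 called 1, with a median log2 fold change of -0.15. The lowest p belonged to Tmem261 (Dmac1), a factor of the distal membrane arm, which had 23.3, 22.1 and 21.2 CPM in OPA1 LKO livers, against 26.5, 32.9, 26.1, 33.7 and 33.0 CPM in CTRL livers. Its groups did not overlap, the difference was -0.45 ± 0.13, and the adjusted p was 0.0766 in edgeR, 0.0277 in DESeq2 and 0.0427 without CTRL replicate 1. Lyrm2, a LYR-motif protein that takes part in assembly, differed by -0.32 ± 0.12 with an adjusted p of 0.148. Of the 7 core subunits of the membrane arm encoded by mitochondrial DNA 0 passed in edgeR (0 at an unadjusted p under 0.05) or in DESeq2, and all 7 were negative (6 on the log2(TPM + 1) scale), with a median of -0.36. Their spread was wide, with the difference of ND4L at -0.43 ± 0.33 and of ND1 at -0.41 ± 0.33. The library medians of the 7 were -0.49, -0.87 and 0.12 in OPA1 LKO livers, against -0.67, -0.37, 0.62, 0.05 and 0.02 in CTRL livers. The summed TPM of these 7 over that of the 45 nuclear genes was 4.75, 3.67 and 7.24 in OPA1 LKO livers, against 4.11, 4.83, 8.58, 5.77 and 7.02 in CTRL livers, and the groups overlapped.

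None of the nuclear subunits of the other complexes passed the edgeR test either. Of 38 nuclear subunits of complexes II to V 0 passed in edgeR (5 at an unadjusted p under 0.05) and 2 in DESeq2, 34 were negative (89.5%, against 53.1% of all tested genes) and the median was -0.14. With upper-quartile factors 29 were negative, and on the log2(TPM + 1) scale 16 were, with a median of 0.03. Of all tested genes 44.8% and 37.6% were negative in these fits. Complex II (succinate dehydrogenase), which like complex I reduces ubiquinone, had a median of -0.50 over its 4 subunits. Sdhc, a membrane anchor, had 146, 149 and 133 CPM in OPA1 LKO livers, against 163, 215, 190, 194 and 199 CPM in CTRL livers. The groups were apart, the difference was -0.43 ± 0.14, and the adjusted p was 0.0914 in edgeR, 0.00994 in DESeq2 and 0.0433 without CTRL replicate 1. Sdhd, the other anchor, differed by -0.71 ± 0.30 with an adjusted p of 0.182. Over the leave-one-out fits the adjusted p of Sdhd ran from 0.0489 (without CTRL replicate 1) to 0.467, and the difference was -0.29 with the replicate numbers as a block and -0.43 with 1 surrogate variable. In complex III Uqcr10, a small subunit, and Uqcrc2, a core protein, had the lowest p, at -0.23 ± 0.14 and -0.22 ± 0.16. In complex IV these were Cox8a, at -0.33 ± 0.14, and Cox5a, at -0.51 ± 0.27. In ATP synthase they were Atp5k, subunit e, at -0.40 ± 0.14, which DESeq2 called with an adjusted p of 0.0471, and Atp5a1, subunit alpha, at -0.33 ± 0.23. Higd2a, a factor of supercomplex formation, differed by -0.41 ± 0.11 with an adjusted p of 0.0608 in edgeR, 0.000875 in DESeq2 and 0.0467 without CTRL replicate 1, and Cox7a1, a complex IV isoform known from heart and muscle, by -1.05 ± 0.45 with an adjusted p of 0.192 (-0.58 without CTRL replicate 3).

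Among other enzymes that pass electrons to ubiquinone, 1 of 7 passed, lower. Gpd2, the mitochondrial glycerol 3-phosphate dehydrogenase, had 14.8, 15.4 and 12.7 CPM in OPA1 LKO livers, against 20.4, 18.7, 23.1, 19.8 and 25.5 CPM in CTRL livers. The groups did not overlap, and Gpd2 fell by 0.59 ± 0.14 with an adjusted p of 0.0420 in edgeR. The call held in 1 of 8 leave-one-out fits, that without CTRL replicate 1 (adjusted p = 0.0344), and in 4 of 11 other fits, and the adjusted p reached 0.1796 without OPA1 LKO replicate 3. Among 6 proteases and chaperones of the inner membrane and matrix, listed here for the turnover of complex I, 1 passed in edgeR, higher. Whether each of the 6 acts on complex I subunits was not tested. Of the 6, 4 were negative, with the lowest at -0.68. Both DESeq2 and edgeR without CTRL replicate 1 called Oma1 beside Lonp1. Lonp1, the matrix protease, had 297, 165 and 195 CPM in OPA1 LKO livers, against 94.1, 111, 101, 100 and 101 CPM in CTRL livers. Every OPA1 LKO library lay well above every CTRL library, and Lonp1 rose by 1.11 ± 0.18 with an adjusted p of 0.00946, passing in 8 of 8 leave-one-out fits and in 10 of 11 other fits. The exception was the fit with the replicate numbers as a block, at 1.07 with an adjusted p of 0.0743. Among 11 regulators of respiratory genes 0 passed in edgeR (3 at an unadjusted p under 0.05), and DESeq2 called 1, Esrrg, an estrogen-related receptor, at 0.69, 1.17 and 1.48 CPM in OPA1 LKO livers and 2.07, 2.75, 2.57, 5.28 and 2.18 CPM in CTRL livers. Its edgeR difference was -1.41 ± 0.41 with an adjusted p of 0.0705, or 0.0373 without CTRL replicate 1. Pprc1, a coactivator related to PGC-1, differed by 0.60 ± 0.24 with an adjusted p of 0.165, or by 0.33 with an adjusted p of 0.574 without OPA1 LKO replicate 1.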

How the data were processed

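RNA of 8 mouse liver samples was sequenced from stranded, poly(A)-based libraries, per the labels' protocols. STAR, StringTie, RSEM and MultiQC and the build mm10 are named, without versions or settings, per the submitters' processing notes. The deposited values are RSEM expected counts, not normalised, and TPM, each for genes and transcripts. Gene expected counts were rounded, genes with low counts removed (filterByExpr, minimum 10 and 15 in total), scaled with TMM factors and tested between the groups by edgeR 4.0.16 (R 4.3.3) without covariates. A standard error is the fold change divided by the root of F. Alternatives were DESeq2 1.42.0, voom and log2(TPM) fits with limma 3.58.1, and sva 3.50.0. Transcript shares used scipy and an exact test over 56 splits. The procedure was tested on simulated data. Members, lists and named genes were chosen with earlier results of these data known. In each role class the rule named the 3 genes with the smallest p and those of highest and lowest TPM, and in each list the genes called or, with none, the 2 of smallest p. Of the 45 genes 1 enters the counts and medians but is not reported singly here. Of the 45 genes, 40 had whole counts in every library (tolerance 0.005), with no sign of reads divided with other genes. Coordinates of genes are from GENCODE M21 (GRCm38, the build called mm10), and those of promoters from RefSeq. The highest correlation between libraries was 0.980, and no libraries were merged.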

Additional observations from a re-analysis of the deposited data

Results flagged for a closer look

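Dixon's rule was applied to the CTRL livers (n = 5) for the CPM of the 45 complex I genes and of Opa1, 46 sets of values, of which 1 stood out, where chance flags about 1 in 20. Ndufa5, a small subunit of the peripheral arm, had 171 CPM in CTRL replicate 3, far from the other CTRL livers at 98.7 to 114 CPM. The OPA1 LKO livers had 125, 97.1 and 148 CPM. Without CTRL replicate 3 no complex I gene was called.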

How the results depend on the processing

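The reported value of 0 complex I genes called stayed at 0 in 10 of 11 other fits over the groups (upper-quartile factors, voom, no filter, 4 fits of log2(TPM), edgeR without mitochondrial genes, the replicate block and 1 surrogate variable) and in all 8 leave-one-out fits, and DESeq2 called 1. Of 772 values of 41 named genes under alternatives, 704 kept their direction and their side of the threshold, 41 values of 9 genes turned sign, 12 passed the threshold only in the alternative and 15 no longer passed it.

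The sign of small differences depended on scaling, and the causes were not tested. With upper-quartile factors 21 genes were negative (median of all genes 0.050), with Ndufs3 at 0.045, Ndufa11 at 0.053 and Ndufaf2 at 0.010. On the log2(TPM + 1) scale 16 were negative (medians 0.103 for the 45 genes and 0.088 for all, 333 genes called), with Ndufv1 at 0.038, Ndufs3 at 0.132, Ndufa6 at 0.032, Ndufa2 at 0.062, Ndufa3 at 0.010, Ndufa11 at 0.147 and Ndufaf2 at 0.086. Without a filter the values on that scale were the same (16 negative, median 0.103), but the median of all genes was 0.024 and 418 were called. With a pseudocount of 0.1 again 16 were negative (medians 0.103 and 0.110, 318 called), with Ndufv1 at 0.038, Ndufs3 at 0.132, Ndufa6 at 0.032, Ndufa2 at 0.063, Ndufa3 at 0.010, Ndufa11 at 0.150 and Ndufaf2 at 0.088. After rescaling TPM without mitochondrial genes 19 were negative (medians 0.055 and 0.056, 494 called), with Ndufs3 at 0.084, Ndufa2 at 0.015, Ndufa11 at 0.101 and Ndufaf2 at 0.039. The median of all genes was -0.013 with voom, -0.022 without a count filter, -0.014 without mitochondrial genes in edgeR and -0.0090 with 1 surrogate variable, where Ndufv1 was 0.032.

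DESeq2 called 1692 genes in all, 1 of the complex I genes, 1 further assembly factor (Tmem261) and Opa1 at -0.62. Opa1 was also called with voom (-0.64) and 1 surrogate variable (-0.54). Whether the shared replicate numbers 1 to 3 pair the libraries was not settled. The correlations of deviations between libraries of the same number were 0.072, 0.054 and 0.18. OPA1 LKO replicates 1 and 3 correlated best with the CTRL library of their own number, and OPA1 LKO replicate 2 with CTRL replicate 5. The replicate block called 240 genes, 0 of them complex I genes, with a median of all genes of 0.0025 and Ndufv1 at 0.030.

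Leaving out each library in turn, the genes called ran from 198 (without OPA1 LKO replicate 1) to 1701 (without CTRL replicate 1), the further assembly factors called from 0 to 1, the negative complex I genes from 25 (without CTRL replicate 4) to 43 (without CTRL replicate 5), their median from -0.12 to -0.033, the median of all genes from -0.036 to -0.0079, and Opa1 from -0.71 to -0.49. Ndufv1 ran from -0.29 to 0.018, Ndufs3 from -0.095 to 0.019, Ndufs4 from -0.019 to 0.13, Ndufa11 from -0.10 to 0.068, Ndufaf2 from -0.15 to 0.0017 and Ndufaf6 from -0.016 to 0.20. Of the 41 named genes 20 moved by over 1.5 times when 1 library was left out. For transcript shares these fits are no test, since the smallest exact permutation p is then 0.0952 without an OPA1 LKO and 0.0571 without a CTRL library. Standard errors of the 45 genes had a median of 0.15 (log2), which limits what 3 against 5 samples can show.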
